A study of Mus musculus with 8 samples.

Results

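The Ifi200 genes and the genes of the inflammasome were followed in B cell precursors of Pax5-deficient mice. The set held 10 genes: 5 genes of the Ifi200 family (Ifi202b, Ifi203, Ifi204, Ifi205 and Ifi206), the sensors Aim2 and Nlrp3, the adaptor Pycard, and the caspases Casp1 and Casp4. Every non-control probe that the array files give one of these names, or an accession of one of these genes, was used, which gave 18 of 41174 probes. The genes were chosen because of their ratios in the Pax5sz2 comparison, so their Pax5sz2 values are a description with no test.

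All cells were bone-marrow-derived Pax5-/- pro/preB cells, grown on a feeder layer of irradiated OP9 stromal cells with IL-7. Clone 4 carried the doxycycline-responsive transactivator rtTA and a human Pax5 transgene (huPax5) behind a responsive promoter, both brought in by retroviral vectors, and was treated with 10, 300 or 1000 ng/ml doxycycline. Pax5sz2 cells are labelled with rtTA and doxycycline, without huPax5 and without a dose. RNA from each of these 4 cultures was hybridised against RNA of clone 4 huPax5 without doxycycline (0 ng/ml) on a dye-swapped pair of arrays, which makes 8 arrays. The named RNA is the one set against clone 4 without doxycycline, which is the control RNA throughout. Clone 4 is labelled as 1 clone, and Pax5sz2 as other cells. In the Pax5sz2 comparison the transgene, doxycycline and the difference between the cells cannot be told apart. There were no replicate cultures, the 2 arrays measure the same pair of RNAs, and ± gives the SD between them (n = 2 arrays).

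Ifi200 proteins belong to the PYHIN family, which combines a pyrin domain with a HIN domain that binds DNA, and their genes lie in a cluster on chromosome 1 and are induced by interferon. Aim2, of the same family, binds DNA in the cytosol and recruits Pycard (ASC), which gathers Casp1 into an inflammasome. Nlrp3 forms an inflammasome with the same adaptor. Casp1 cleaves the precursors of interleukin-1β and interleukin-18, and Casp4 (mouse caspase-11) responds to cytosolic lipopolysaccharide. These systems are best known from macrophages.

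In Pax5sz2, Casp1 and Ifi206 were far higher and Ifi202b far lower than in clone 4 without doxycycline. Casp1 was 17.9-fold higher, the brightest Ifi206 probe was 12.8-fold higher, and Ifi202b was at least 15.7-fold lower. These sizes depended on the processing. Over the alternatives, which include each array alone, the log2 ratio ran from 4.04 to 5.02 for Casp1. For Ifi206 it ran from 2.57 to 4.46, the lowest with all its probes averaged. For Ifi202b, whose Pax5sz2 RNA was dim, it ran from -8.24 to -3.87. The ends at 4.04 and -3.87 are each the value of 1 array in the main processing. In clone 4 with 10 or 300 ng/ml doxycycline, Casp1 lay within 0.2 of the control on the log2 scale, and Ifi206, Ifi202b and Ifi204 had log2 ratios between 0.52 and 1.49. Each gene was read from its brightest probe, and was tested where 1 RNA of at least 1 comparison was well above background on that probe on each of its 2 arrays. This held for 9 of the 10 genes and 16 of the 18 probes. A gene passed the size where both arrays gave at least 2-fold in the same direction. In Pax5sz2, 2 of the 9 tested genes passed it as higher and 1 as lower, beside 2.33% (467) and 2.82% (566) of all 20040 tested features. With median centring in place of loess that split over all features was 479 to 202. The genes were chosen on that contrast, and nothing is read from its count.

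**Figure D1:**
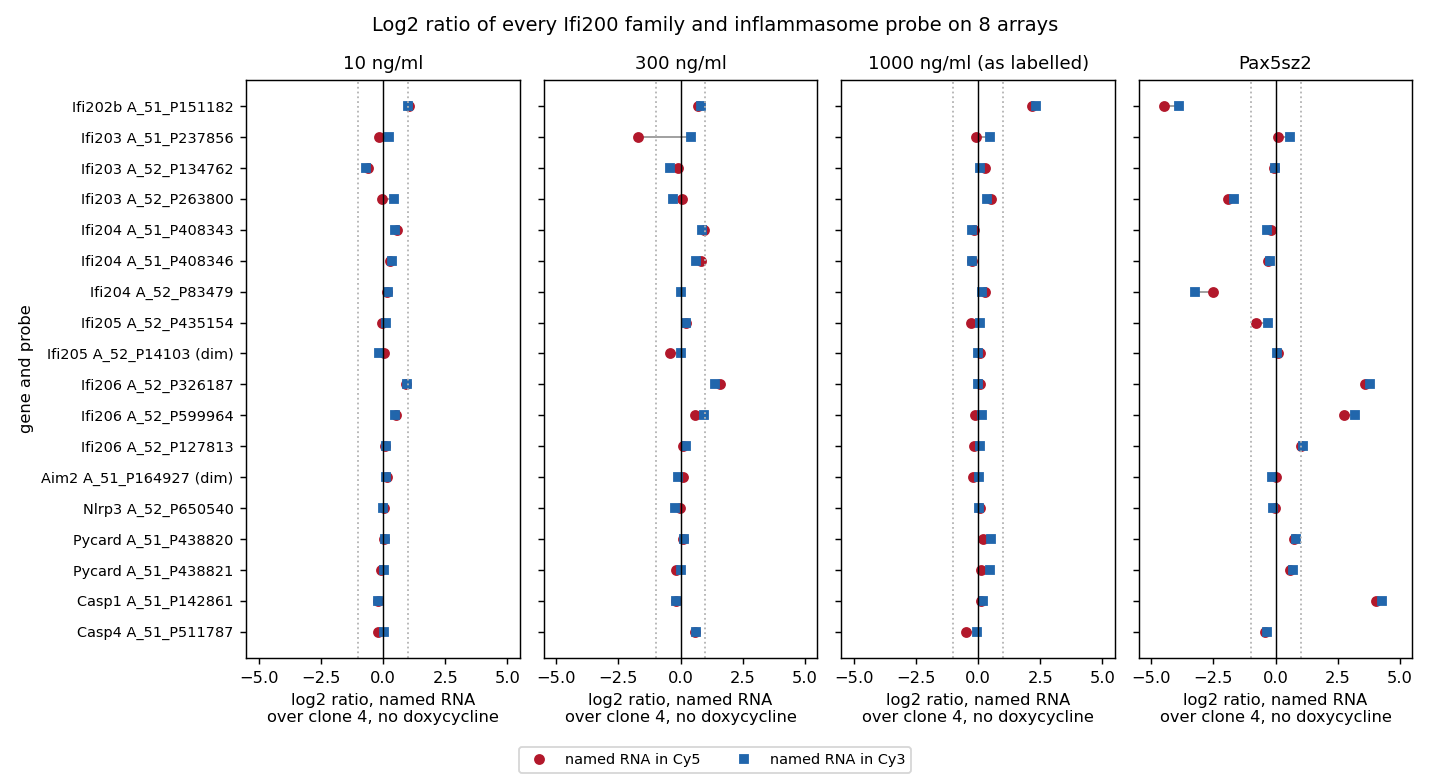
Log2 ratio of the named RNA over clone 4 without doxycycline (x axis) for each of the 18 probes (rows), with 1 panel for each comparison, a circle for the array with the named RNA in Cy5 and a square for the dye swap; dotted lines mark 2-fold. In the Pax5sz2 panel Casp1 and the Ifi206 probes lie to the right, Ifi202b and 1 probe each of Ifi203 and Ifi204 to the left, and in the dose panels nearly all probes lie between the dotted lines.

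The starts of 9 of these genes were in the promoter table of RefSeq (GRCm38.p6; Ifi204 was not), and the 250 bases before the start were searched for motifs through which interferon acts. The 4 windows printed here are those of the genes with the highest and lowest ratios (Casp1, Ifi206 and Ifi202b) and a window of Ifi203. The printed Ifi203 window holds the same match as that of Ifi206. Another Ifi203 window, chr1:173942673-173942922, held no match and is not printed. Capitals mark matches to the core of the interferon-stimulated response element (GAAA, any 2 bases, GAAA) or to TTCNNNGAA, the GAS element, through which interferon-γ acts. All are written 5′ to 3′ on the strand of the gene.
Ifi206, chr1:173491319-173491568, minus strand: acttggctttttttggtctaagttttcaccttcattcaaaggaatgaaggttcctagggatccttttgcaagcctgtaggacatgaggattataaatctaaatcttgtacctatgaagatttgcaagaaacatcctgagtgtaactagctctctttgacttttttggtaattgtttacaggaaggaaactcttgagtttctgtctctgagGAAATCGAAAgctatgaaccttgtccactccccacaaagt
Ifi203, chr1:173942493-173942742, minus strand: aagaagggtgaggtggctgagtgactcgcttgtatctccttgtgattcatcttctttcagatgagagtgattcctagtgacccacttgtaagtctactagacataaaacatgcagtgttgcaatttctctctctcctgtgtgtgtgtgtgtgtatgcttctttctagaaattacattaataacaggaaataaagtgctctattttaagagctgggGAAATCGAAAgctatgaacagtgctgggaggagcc
Ifi202b, chr1:173982845-173983094, minus strand: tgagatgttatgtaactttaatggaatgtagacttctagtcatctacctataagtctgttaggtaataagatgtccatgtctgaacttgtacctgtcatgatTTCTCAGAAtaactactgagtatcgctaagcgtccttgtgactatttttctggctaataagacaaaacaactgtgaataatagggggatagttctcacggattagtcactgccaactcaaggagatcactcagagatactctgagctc
Casp1, chr9:5298267-5298516, plus strand: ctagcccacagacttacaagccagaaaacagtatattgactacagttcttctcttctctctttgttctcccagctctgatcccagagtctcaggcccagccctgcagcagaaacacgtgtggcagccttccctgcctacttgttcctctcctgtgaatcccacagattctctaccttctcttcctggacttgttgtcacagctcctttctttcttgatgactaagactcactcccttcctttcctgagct

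The core motif was found in 3 of the 9 genes, Ifi203, Ifi205 and Ifi206. Some of the 9 have more than 1 window, and counted by window it was in 3 of 12. It was in 2.98% (978 of 32851) of all promoter windows of the same length, on either strand. The 3 genes are relatives in 1 cluster, and in each the letters gctatgaac follow the match, so these matches are not independent. Ifi206 held GAAATCGAAA from 40 to 31 bases before the start. Ifi203, in the window printed here, held the same letters from 35 to 26 bases before the start. Ifi205 held GAAATTGAAA from 134 to 125 bases before its start. The GAS element was found in 1 of the 9, Ifi202b (TTCTCAGAA, 148 to 140 bases before the start). That is 1 of the 12 windows, beside 7.02% of all windows. A composite of an Ets and an IRF motif (GGAA, any 2 bases, GAAA) was in 0 of the 9 (0 of 12 windows) and in 2.3% of all windows. No 10 letters can match both the core and the composite, which differ at their second letter. The windows of Casp1, Casp4, Pycard, Nlrp3 and Aim2 held none of the 3. The genes with the core motif did not share a direction in Pax5sz2, where Ifi206 was higher, the brightest Ifi203 probe was at 0.35 ± 0.33 and Ifi205 at -0.55 ± 0.35. A match is a stretch of letters, and no binding was measured.

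The direction of the 1000 ng/ml pair is not settled and bears on each of its signs. Its ratios correlated negatively with those of the 300 ng/ml arrays over all 41174 probes (r = -0.36 for the arrays that carry the named RNA in Cy5, r = -0.46 for the dye swap, across probes, which are not independent replicates). These 2 arrays were rehybridised slides, and per the file headers were processed with another scanner protocol than the 6 others. Its values are given as labelled, and every one of them changes sign if the pair is turned. Between 40.4% and 45.1% of its spots were well above background, against 59.5% to 75.5% on the 6 others, and the scanner software set that call differently for it (a multiplier of 2.6 against 13), so an RNA called dim there and elsewhere is not at 1 threshold. The 2 arrays of a comparison correlated at r = 0.84 (10 ng/ml), 0.64 (300 ng/ml), 0.83 (1000 ng/ml) and 0.92 (Pax5sz2) over the tested features, on which the 2 arrays share both RNAs.

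Among the caspases, Casp1 stood out. Its probe (chr9:5306226-5306728, plus strand, mm8 per the file headers) gave log2 ratios of 4.04 and 4.27 on the 2 Pax5sz2 arrays, a mean of 4.16 ± 0.16. The log2 level, on a scale set equal across arrays, was 11.83 and 11.52 in Pax5sz2 RNA and 7.78 and 7.25 in the control RNA of those arrays. The 2 RNAs did not overlap, and 7 of the 20040 features had a higher mean ratio. In clone 4 the ratios were -0.20 and -0.19 at 10 ng/ml, -0.19 and -0.17 at 300 ng/ml, and 0.11 and 0.20 at 1000 ng/ml as labelled. All 6 dose arrays thus lay close to 0, with named levels between 6.89 and 7.25. In the 1000 ng/ml pair Casp1 was dim in the control RNA on both arrays and above background in the named RNA on 1.

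Casp4 did not follow Casp1. This neighbour on chromosome 9 (chr9:5336645-5336704, plus strand, mm8) was at -0.45 and -0.33 in Pax5sz2, a mean of -0.39 ± 0.080. At 300 ng/ml both arrays gave 0.60. At 10 ng/ml the mean was -0.09 ± 0.19, with arrays on either side of 0, and at 1000 ng/ml it was -0.27 ± 0.31 as labelled. No array reached 2-fold.

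Pycard, the adaptor that joins a sensor to Casp1, lay above the control in Pax5sz2 by less than 2-fold. Its brighter probe gave 0.74 and 0.84, a mean of 0.79 ± 0.065 (1.73-fold), at levels of 11.93 on both arrays against 11.18 and 11.09 in the control RNA. The other probe, whose start lies 20 bases away so that the pair overlap, gave 0.64 ± 0.089. In clone 4 the brighter probe was at 0.06 ± 0.046 at 10 ng/ml, 0.11 ± 0.048 at 300 ng/ml and 0.36 ± 0.24 at 1000 ng/ml as labelled. Its level lay between 10.55 and 11.26 in every clone 4 RNA, well above background throughout.

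The sensors gave little signal. Nlrp3 was well above background at 10 and 300 ng/ml and in Pax5sz2, and its mean ratios were 0.03 ± 0.024, -0.12 ± 0.13 and -0.06 ± 0.049 in that order. In the 1000 ng/ml pair neither RNA was well above background for it. Aim2 was read by 1 probe, which the array files call Gm1313 and which was matched by its accession. It was well above background in 1 of its 16 channel readings (the named RNA on 1 array at 10 ng/ml), so no ratio of Aim2 is given. That is a limit of detection and not a level of 0.

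**Figure D2:**
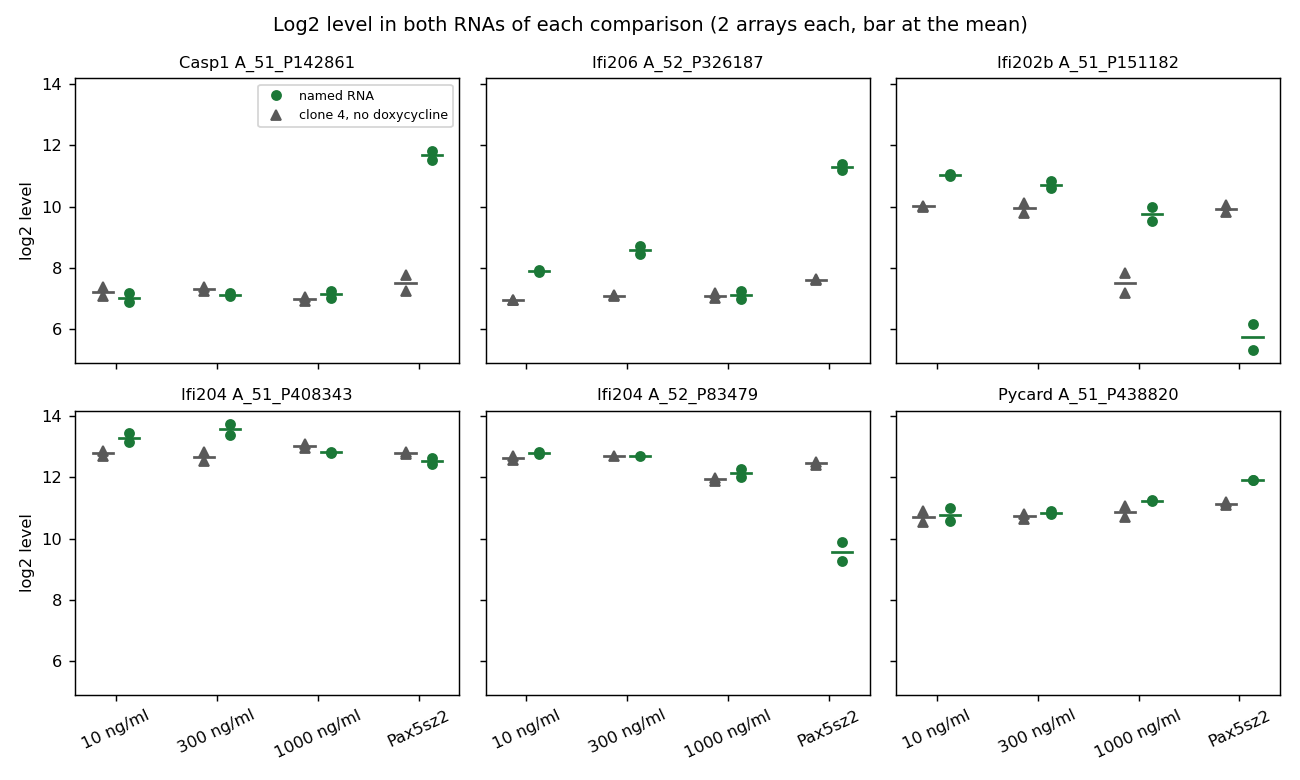
Log2 level (y axis) in the named RNA (circles) and in clone 4 without doxycycline (triangles) for 6 probes, with the 4 comparisons on the x axis, 2 arrays each and a bar at their mean. Casp1 and Ifi206 are far above the control in Pax5sz2, Ifi202b and the second Ifi204 probe are below it, and the control level of Ifi202b is lower on the 1000 ng/ml arrays (7.51) than on the others (9.93 to 10.0).

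Within the Ifi200 family, Ifi206 was the gene with the highest ratio in Pax5sz2. Its 3 probes carry an older symbol in the files and were matched through the RefSeq table. The match rests on that symbol alone, since no transcript identifier listed for these probes leads to a gene. Which gene they read is therefore uncertain. The brightest (chr1:175308074-175308133, minus strand, mm8) gave 3.58 and 3.78, a mean of 3.68 ± 0.14, at levels of 11.21 and 11.37 against 7.63 and 7.60 in the control RNA. The second, 2299 bases away, gave 2.97 ± 0.30, and the third, a further 8003 bases away, gave 1.00 and 1.11, just past the size. All 3 probes gave a higher level in Pax5sz2 on both arrays, but they differed in size: the ratio of the first exceeded that of the third by 2.62 ± 0.070.

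The same probe was also higher in clone 4 with doxycycline at the lower doses. It gave 0.92 and 0.95 at 10 ng/ml (0.94 ± 0.022), just short of the size, and 1.59 and 1.38 at 300 ng/ml (1.49 ± 0.15, 2.80-fold). At 300 ng/ml Ifi206 was 1 of 9 tested genes past the size as higher, beside 1.31% of all features, and 0 of 9 were lower, beside 2.37%. At 1000 ng/ml it gave 0.08 and -0.02, with neither RNA well above background. The second probe gave 0.51 ± 0.040 at 10 ng/ml and 0.76 ± 0.24 at 300 ng/ml, and the third 0.10 ± 0.011 and 0.16 ± 0.068, with its control RNA dim at 300 ng/ml. The level of the brightest probe in the named RNA was 7.89 and 8.58 at the lower doses (10 and 300 ng/ml) and 11.29 in Pax5sz2.

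Ifi202b, a family member that has HIN domains and no pyrin domain and is known to antagonise Aim2, went the other way in Pax5sz2. Its probe (chr1:175799497-175800526, minus strand, mm8) gave -4.50 and -3.87, a mean of -4.18 ± 0.44. The control RNA had levels of 9.82 and 10.04, and Pax5sz2 RNA 5.32 and 6.17, where it was not well above background on either array. As a mean of the 2 arrays, with the detection level put in where the signal was below it, this is a value at least 15.7-fold lower. On the second array the measured level of 6.17 was above the detection level of 6.10 and was used itself.

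In clone 4 as labelled, Ifi202b was higher than in the control at each dose. It gave 1.05 and 1.00 at 10 ng/ml (1.02 ± 0.034), with the lower array at 0.999 and so just outside the size, and 0.70 and 0.83 at 300 ng/ml (0.77 ± 0.094). At 1000 ng/ml it gave 2.16 and 2.34 (2.25 ± 0.12, 4.77-fold), with the control RNA well above background on 1 of 2 arrays. From the processed signals that ratio was 3.58. It was the 1 of 9 genes past the size as higher at 1000 ng/ml, beside 1.93% of all features, and 0 were lower, beside 0.634%. With that pair turned it is 1 lower (-2.25) and 0 higher, so that Ifi202b then opposes its own ratios at 10 and 300 ng/ml. At 10 ng/ml 0 of the 9 genes passed the size in either direction, beside 0.609% of features higher and 1.27% lower. With median centring those counts over all features were 75 and 76 at 10 ng/ml, and 97 and 386 at 300 ng/ml.

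The control RNA carries the same label in all 4 comparisons, yet its Ifi202b level was 10.0, 9.95 and 9.93 on the 10 ng/ml, 300 ng/ml and Pax5sz2 arrays and 7.51 on the 1000 ng/ml arrays. The named RNA of the 1000 ng/ml pair had a mean level of 9.76. For the other member probes the control level on the 1000 ng/ml arrays lay less far from the rest. The Casp4 level, for example, was 8.43 there against 7.75 to 7.88 elsewhere.

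Ifi204, which encodes a protein known as a DNA sensor, was read by 3 probes that disagreed in Pax5sz2. The brightest (chr1:175585909-175585968, minus strand, mm8) gave -0.20 and -0.34 (-0.27 ± 0.10), and the probe next to it -0.26 ± 0.062. The third (chr1:175592563-175592622), 6594 bases away, gave -2.52 and -3.25 (-2.88 ± 0.51, 7.37-fold lower), with levels of 9.90 and 9.26 against 12.42 and 12.51 in the control RNA. The third ratio was below the first by -2.61 ± 0.41 on the same arrays. The accessions the files list for the third probe belong to 3 genes, Ifi204, Ifi205 and Ifi211, so which gene it reads is uncertain.

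At the lower doses the first pair of Ifi204 probes lay above the control, by less than 2-fold. The brightest gave 0.58 and 0.46 at 10 ng/ml (0.52 ± 0.081) and 0.94 and 0.87 at 300 ng/ml (0.90 ± 0.052). Its neighbour gave 0.32 ± 0.046 and 0.73 ± 0.13. The third probe gave 0.16 ± 0.029 at 10 ng/ml, and 0.01 on the 1 array at 300 ng/ml where its spot was not an outlier. At 1000 ng/ml as labelled the 3 gave -0.22 ± 0.053, -0.24 ± 0.0086 and 0.21 ± 0.10. With levels of 12.5 to 13.6 in the named RNAs, the brightest Ifi204 probe was far above background in all 4.

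Ifi203 also split by probe. Its brightest (chr1:175757152-175757211, minus strand, mm8) gave 0.11 and 0.59 in Pax5sz2 (0.35 ± 0.33). The second, 13169 bases away, gave -0.04 ± 0.0091, and the third, 3491 bases further (chr1:175773812-175773871), gave -1.93 and -1.67 (-1.80 ± 0.19, 3.49-fold lower). At 300 ng/ml the 2 arrays of the brightest probe opposed each other, at -1.73 and 0.43, and its mean of -0.65 ± 1.52 has no direction. At 10 ng/ml it gave 0.03 ± 0.28, the second probe -0.65 ± 0.060 and the third 0.19 ± 0.35. The 3 gave 0.19 ± 0.39, 0.18 ± 0.15 and 0.44 ± 0.13 at 1000 ng/ml as labelled.

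Ifi205 was close to its detection limit. Its detected probe gave -0.79 and -0.30 in Pax5sz2 (-0.55 ± 0.35), with levels of 6.03 and 6.39 against 6.83 and 6.70. At 10 ng/ml it gave 0.04 ± 0.11, at 300 ng/ml 0.21 ± 0.0058 and, as labelled, -0.09 ± 0.25 at 1000 ng/ml. Its other probe was not tested.

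Over all tested probes of the Ifi200 genes, 3 of 11 passed the size as higher in Pax5sz2 (the 3 of Ifi206) and 3 as lower (1 each of Ifi202b, Ifi203 and Ifi204). Over all 16 tested probes, Casp1 included, 4 were higher and 3 lower, against 557 and 954 of 29464 probes on the array. Probes of the same gene share their source and are not independent. The file coordinates are mm8, for which no exon annotation was used here, so whether the probes that disagree lie in exons of different transcripts is not given. Members of this family share sequence, and a probe may also read a relative.

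**Figure D3:**
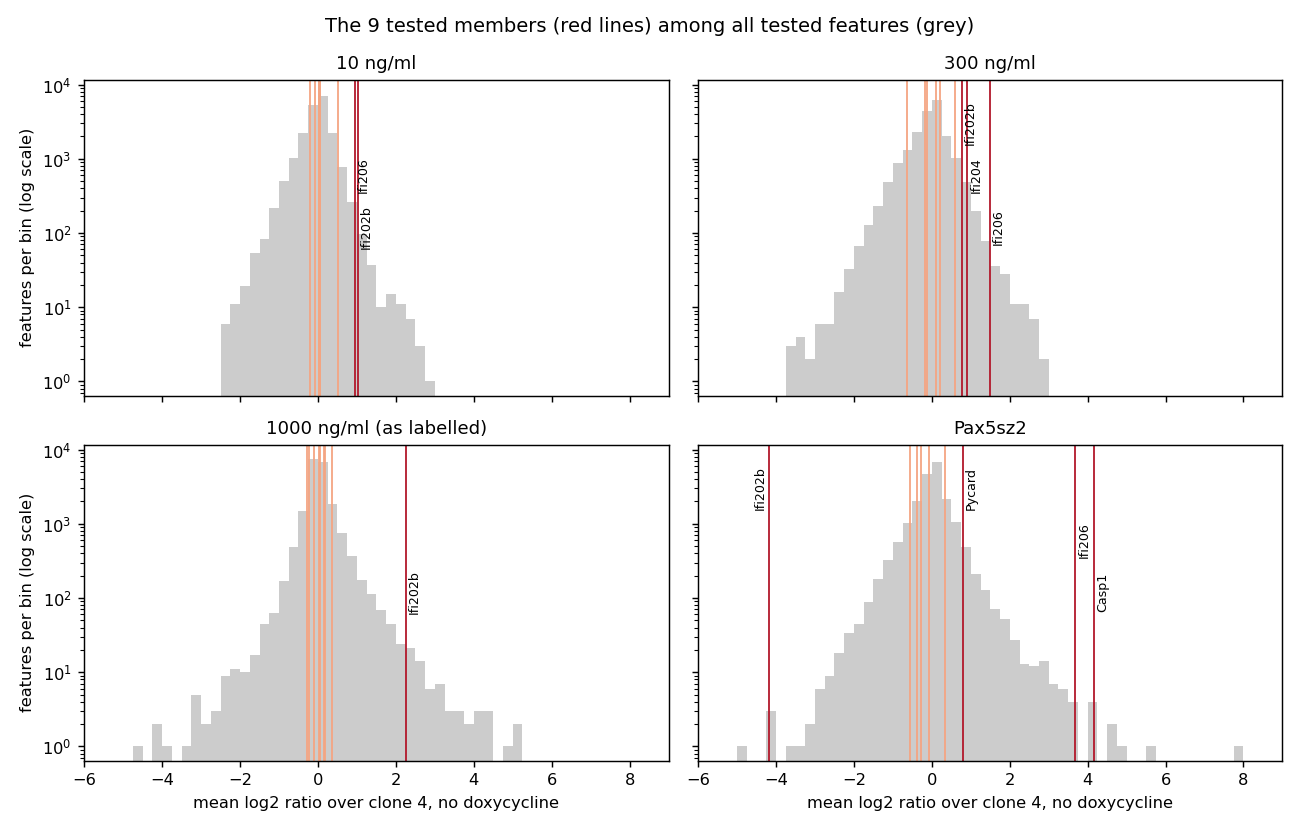
Number of tested features (y axis, log scale) per 0.25 of mean log2 ratio (x axis) in each comparison, with red lines at the 9 tested genes, labelled where the size of the mean is 0.7 or more. In Pax5sz2 Casp1, Ifi206 and Ifi202b lie in the outer tails, and most members lie near the centre in every panel.

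The median ratio of the 9 genes was 0.04, 0.21 and 0.05 at 10, 300 and 1000 ng/ml (the last as labelled) and -0.06 in Pax5sz2. Over all features the medians were 0.01, 0.003, 0.004 and 0.03. At 300 ng/ml the median of the members lay farthest from that of all features, and in Pax5sz2 the large ratios were those of single genes in both directions.

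A mean doxycycline effect was tested with limma over the 3 doses of clone 4, each the mean of its 2 arrays, with Benjamini-Hochberg adjustment over all 20040 features. The 3 doses serve as the replicates, so differences between doses count as spread, and the spread of the control RNA is left out. None of the 9 genes passed, and 0% of all features did (0 features, 1192 at an unadjusted p under 0.05, smallest adjusted p 0.70). Ifi202b had a mean effect of 1.35 (SE 0.357; limma, adjusted p = 0.70), higher at 3 of 3 doses. Ifi206 had 0.82 (SE 0.332; limma, adjusted p = 0.70) and Ifi204 0.40 (SE 0.260; limma, adjusted p = 0.715). With the 1000 ng/ml pair turned, 0 features passed (4909 at an unadjusted p under 0.05) and Ifi202b was at -0.15 (limma, adjusted p = 0.921).

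Without the 1000 ng/ml pair, 2 of the 9 genes passed the same limma test, beside 14.4% of all features (2888, of which 1142 were higher). Ifi206 was at 1.21 (SE 0.17; limma, adjusted p = 0.0461) and Ifi202b at 0.90 (SE 0.095; limma, adjusted p = 0.0397), while Ifi204 was at 0.71 (limma, adjusted p = 0.0586) and Casp1 at -0.19 (limma, adjusted p = 0.138). That fit rests on 2 doses with 1 control RNA. The fits with and without the pair share the other 2 doses and are not independent.

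Other genes of these pathways were read from 4 lists, each by the size. Of 11 other PYHIN genes, 4 were tested, and 2 were higher and 0 lower in Pax5sz2 (median 1.45, against 0.03 over all features). Of all features, 2.33% were higher and 2.82% lower there. Ifi209 was at 2.47 ± 0.24 (2.03 on its other probe), and Ifi214 at 1.82 ± 0.018, with its control RNA above background on 1 of 2 arrays. The remaining pair were Ifi207 at 1.08 ± 0.12, with the lower array at 0.997 and so just short of the size, and Ifi211 at -0.24 ± 0.16. At 10, 300 and 1000 ng/ml 0 of the 4 passed, with medians of 0.07, 0.58 and -0.12 (the last as labelled). In the 1000 ng/ml pair 3 of the 4 in the named RNA and 2 in the control RNA were not well above background on each array. The 250-base windows of Ifi207, Ifi211 and Ifi214 held the core motif, and that of Ifi209 did not.

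Of 35 further inflammasome sensors, adaptors and effectors, 29 were tested. In Pax5sz2 2 were higher and 2 lower (median -0.06), beside 2.33% and 2.82% of all features. P2rx7, the ATP-gated channel whose opening triggers Nlrp3, was at 1.76 ± 0.076, with its other probe at 0.31. Il1rn, which encodes the interleukin-1 receptor antagonist, was at 1.08 ± 0.017, with its other probe at 0.31. Nlrc4, the adaptor of the sensors for bacterial flagellin, was at -1.38 ± 0.00043. Among those not tested was Il1b, the substrate of Casp1, which was too dim.

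Il1rn was also higher at 10 ng/ml (1.31 ± 0.20) and at 300 ng/ml (1.22 ± 0.23), with its other probe at 0.43 and 0.38. It was the 1 gene of 29 in each case, beside 0.609% and 1.31% of all features. Txnip, a thioredoxin-binding protein that also binds Nlrp3, was the 1 gene lower at 300 ng/ml (-1.14 ± 0.18, other probe -1.02), beside 2.37% of all features. Txnip was also the 1 gene past the size at 1000 ng/ml, as higher (1.56 ± 0.26 as labelled), beside 1.93%. Its other probe was at 0.68 there, short of the size. The list's medians were 0.03, -0.14 and 0.54 at the 3 doses, the last as labelled and against 0.004 over all features. The tested macrophage, granulocyte and dendritic cell markers had medians of -0.35, -0.85 and -1.12 in the 300 ng/ml RNA. In the 1000 ng/ml RNA as labelled their medians were 0.44, 0.52 and 0.56. In both RNAs the sign was that of the list median. This did not hold for the 10 ng/ml RNA, where the marker medians were -0.21, -0.02 and -0.02 and the list median was 0.03. In the 1000 ng/ml pair the control RNA was not well above background on each of the 2 arrays for 7, 4 and 4 of the markers. Of these 9, 5 and 5 markers, 1, 2 and 2 were lower and 0 higher at 300 ng/ml, and 1, 2 and 1 were higher and 0 lower at 1000 ng/ml. The granulocyte protease Ctsg was at -2.98 ± 0.13 and 5.14 ± 0.19. Their part in the ratios of the list was not tested.

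In the lists of cytosolic DNA sensing and interferon signalling, 18 and 17 genes were tested (medians 0.09 and -0.15 in Pax5sz2). In each list 1 gene was higher in Pax5sz2 and 0 lower, beside 2.33% and 2.82% of all features. Zbp1, a sensor of Z-form nucleic acid, was at 1.73 ± 0.12 there. It was also the 1 DNA sensing gene higher at 10 ng/ml (1.97 ± 0.10) and at 300 ng/ml (2.04 ± 0.72). Irf2, a factor that binds interferon response elements, was at 1.31 ± 0.36 in Pax5sz2. At 10 ng/ml Socs1, an inhibitor of the signal of interferon receptors, was at 1.20 ± 0.038. At 300 ng/ml Socs1 was at 1.21 ± 0.070, and Irf7, named after its value was seen, at 1.09 ± 0.086. At 1000 ng/ml as labelled 2 genes in each of these lists were higher and 0 lower, namely Sting1, Samhd1, Ifngr1 and Socs1, of which the first 3 were named after their values were seen. Of all features, 0.609%, 1.31% and 1.93% were higher at 10, 300 and 1000 ng/ml.

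**Figure D4:**
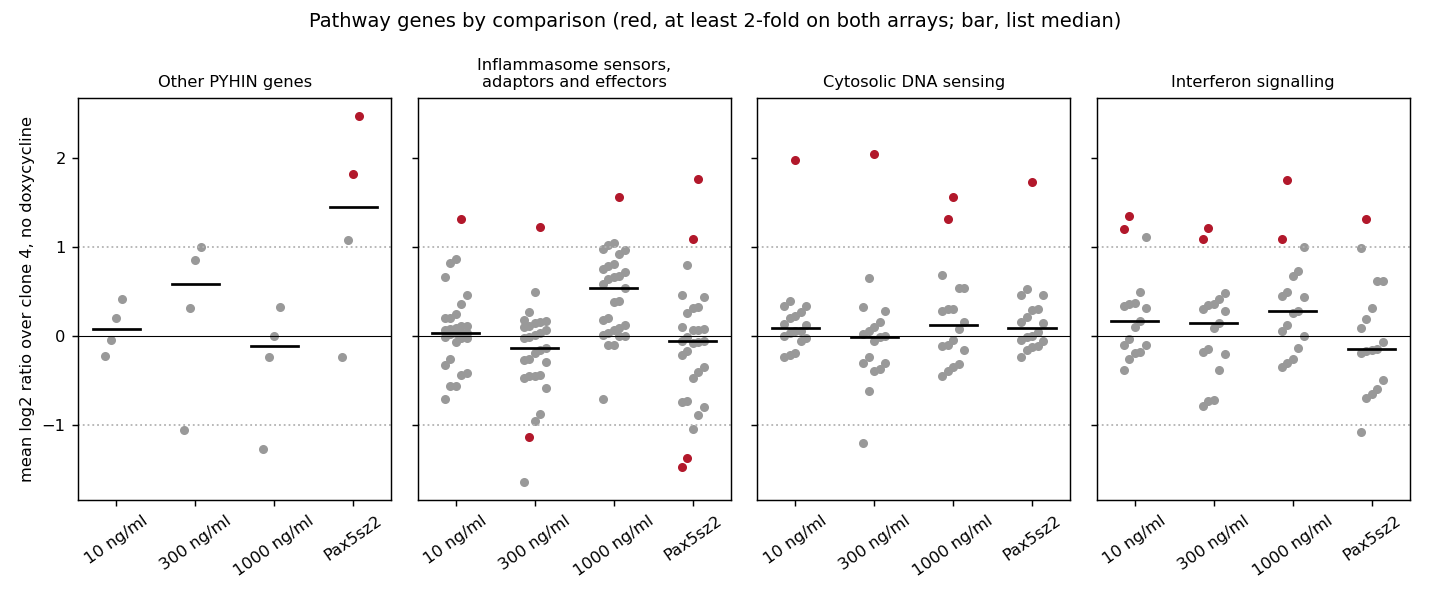
Mean log2 ratio over clone 4 without doxycycline (y axis) of every tested gene of the 4 pathway lists, by comparison (x axis, 1000 ng/ml as labelled), with genes past the size in red and a bar at the list median. The other PYHIN genes have their highest median in Pax5sz2 (1.45), and the remaining lists have medians between -0.15 and 0.54.

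The 3 named features most like Casp1 over the 8 ratios, by Euclidean distance, were Stag3, a cohesin subunit of meiosis (0.721), Klrd1, which encodes the NK cell receptor chain CD94 (0.728), and Vpreb2, a surrogate light chain (0.764). Their mean Pax5sz2 ratios were 4.57, 4.58 and 4.23. Those most like Ifi202b were Olfr433 (2.18), Tcstv3 (3.50) and Csrp3 (3.62), at -3.02, -2.50 and -2.76 in Pax5sz2. The Pax5sz2 ratio of Ifi202b is a ratio against a dim RNA, which its distances carry. The features nearest to Ifi202b lay farther from it than those nearest to Casp1 lay from Casp1.

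Because inflammasome genes are best known from myeloid cells, markers of other cell types were read on the same arrays. Of 10 macrophage and monocyte markers 9 were tested, and all 9 were well above background in both RNAs of the Pax5sz2 comparison. Their mean log2 level was 8.51 and 8.58 in Pax5sz2 and 8.25 and 8.32 in the control, with 1 higher in Pax5sz2 (Ccr2, 3.24 ± 0.30) and 1 lower (Mpeg1, -1.10 ± 0.030, other probe -0.16). Of 8 granulocyte markers 5 were tested, with 0 higher and 1 lower (Ctsg, -1.69 ± 0.27), and S100a8, S100a9 and Ngp were too dim to be tested. Of 6 dendritic cell markers 5 were tested and 0 passed the size in Pax5sz2. Of all features, 2.33% were higher and 2.82% lower there. The part of myeloid cells in the ratios of Casp1, Ifi206 and Ifi202b was not tested. In bulk RNA a change in the number of cells of a type and in RNA per cell cannot be told apart.

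Of 12 tested markers of the OP9 feeder, 3 passed the size as higher at 10 ng/ml and 6 at 300 ng/ml, beside 0.609% and 1.31% of all features. At 1000 ng/ml 0 passed and in Pax5sz2 4 (beside 2.33% of all features), all as higher. The list medians were 0.84, 1.15 and -0.08 at 10, 300 and 1000 ng/ml (the last as labelled) and 0.47 in Pax5sz2. In the same order the brightest Ifi206 probe was at 0.94, 1.49, 0.03 (both RNAs dim) and 3.68. The list was not uniform, with Dcn, Lum and Thy1 at -0.09, -0.04 and -0.07 at 10 ng/ml. Nor was it uniform in Pax5sz2, where Col1a1, Col1a2, Col6a1 and Fn1 were at 0.18, 0.01, 0.02 and -0.24. Thy1, 1 of the 4 markers past the size in Pax5sz2, was at 1.68 there. Other probes of some of these genes gave less. At 300 ng/ml Col3a1 was at 1.91 (other probe -0.02), Vcam1 at 1.86 (0.44) and Cxcl12 at 1.75 (1.22). In Pax5sz2 the other probes of Sparc, Vcam1, Thy1 and Cxcl12 were at -0.10, 0.20, 0.29 and 1.25. The mean log2 level of the 12 markers was 9.90 and 10.16 in the 300 ng/ml RNA against 8.94 and 9.12 in its control, and 9.87 and 9.93 in Pax5sz2 against 9.26 and 9.28. Their part in the ratios of the Ifi200 genes was not tested. All 10 markers of B cell precursors were well above background in both RNAs of the Pax5sz2 comparison, where Vpreb1 (7.88 ± 0.94) and Igll1 (5.65 ± 0.44, other probe 0.98) were higher and Dntt (-4.89 ± 0.32) and Ebf1 (-1.58 ± 0.33, other probe -0.25) lower. In the 10, 300 and 1000 ng/ml pairs the control RNA was above background for Vpreb1 on 0, 0 and 1 of 2 arrays. For Igll1 it was so on 1, 0 and 0. Whether clone 4 without doxycycline expressed these genes is thus not settled. The Pax5 probe for the mouse coding transcript gave -0.11 ± 0.059, 0.23 ± 0.073 and -0.27 ± 0.032 at 10 ng/ml, 300 ng/ml and in Pax5sz2. A second mouse Pax5 probe, designed on a cDNA clone, gave 2.66 ± 0.20, 2.35 ± 0.055 and 3.02 ± 0.19 in the same order, with both RNAs well above background. At 1000 ng/ml as labelled the first probe gave -0.45 ± 0.11, with the named RNA dim. The second gave 0.11 ± 0.20 there, with both RNAs dim. The mouse gene is disrupted and the transgene is human, so what either probe reads is not settled, and neither checks the labels.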

How the data were processed

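The 8 dual-colour Agilent mouse arrays had 43790 spots each (41534 non-control). The scanner files were made with Feature Extraction 10.5.1.1, per the file headers, and hold deposited raw mean and background intensity per channel, with no normalization, and processed intensity after background subtraction and dye normalization. The deposited series matrix holds a log10 ratio, which equals the scanner ratio to within 5e-06, with opposite sign on arrays that carry the named RNA in Cy3. From these deposited intensities, log2 ratios were computed with R 4.3.3 and limma 3.58.1: normexp with an offset of 50, loess within arrays with control spots at weight 0, outlier spots left out (37 to 295 per array), no saturated spot, ratios turned to named RNA over control and averaged per probe. Levels are per channel after scaling average intensities to 1 distribution across arrays, and are open to dye bias within 1 array. No probe is ranked against another by level, apart from the choice of the brightest.

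Each dye-swapped pair counted as 1 sample, and the size (2-fold on both arrays) carries no test. A dim RNA gives a lower bound against the lowest signal well above background on its array, or against its own level where that is higher. The bound is a mean of the 2 arrays, and 1 array alone can fall below it. The mean doxycycline effect used lmFit and eBayes, two-sided, at an adjusted p under 0.05. Motifs were searched with Python 3.11.15 in RefSeq windows of GRCm38.p6, which were not joined to the mm8 coordinates. Symbols were updated through the RefSeq table: of 41174 probes, 23374 were matched by accession, 6733 by symbol and 2919 by an older symbol, 1845 kept the name in the file and 6303 had none. Scripts were tested on simulated data. Alternatives changed the offset, normalization, signal, outlier spots, probe choice, dim filter, arrays, batch, replicate unit and eBayes setting.

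The members and gene lists were chosen with earlier results of these data known. Besides the members, named genes were those of a pathway list past the size in Pax5sz2 (up to 4) or at 10 or 300 ng/ml (up to 2), the 3 nearest features to the highest and lowest member, and fixed cell markers. Sting1, Samhd1, Ifngr1, Irf7, Ifi207, Ifi211 and Il1b were named after their values were seen. A few list genes enter the counts and are not reported here by name. The number of arrays limits the precision.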

Additional observations from a re-analysis of the deposited data

Results flagged for a closer look

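The Ifi202b level of the control RNA stood apart in 1 of the 4 comparisons. It was 7.51 on the log2 scale on the 1000 ng/ml arrays, against 9.93 to 10.0 elsewhere, so that the gap was 0.969 of the whole range. This was 1 of 16 member probes looked at in this way, and chance flags about 1 in 20. The control RNA was above background on 1 of the 2 arrays, and the 1000 ng/ml pair also differs from the other arrays in its slides and scanner protocol, whose part was not tested.

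Ifi202b was on opposite sides of the control in 2 comparisons. It was at 2.25 ± 0.12 at 1000 ng/ml as labelled and at least 15.7-fold lower in Pax5sz2 (measured ratio -4.18 ± 0.44, with Pax5sz2 RNA not well above background), on both arrays each. The difference was not tested, and with the sign of the 1000 ng/ml pair turned the former becomes -2.25.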

How the results depend on the processing

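Casp1 and Ifi206 as higher and Ifi202b as lower in Pax5sz2 passed the size under each of the 7 settings of signal, scaling, probes and filters tried, and on each array alone. Processed signals and the series matrix each added Ifi205 (2 lower in Pax5sz2), the mean of all probes added Ifi204 (2 lower) and took away Ifi206 at 300 ng/ml (0 higher), and processed signals, an offset of 10 and the series matrix each added Ifi202b and Ifi206 at 10 ng/ml (2 higher). Turning the 1000 ng/ml pair gave 0 higher and 1 lower, with Ifi202b at -2.25. Leaving out 1 array gave 0 to 1 members higher at 10 ng/ml, 1 higher and 0 to 1 lower at 300 ng/ml, and 1 higher at 1000 ng/ml.

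Over all features, counts past the size as higher and lower moved as follows. With processed signals they were 408 and 634 at 10 ng/ml, 661 and 1223 at 300 ng/ml, and 1110 and 1025 in Pax5sz2. With the series matrix they were 363 and 693, 771 and 1082, 680 and 239 (1000 ng/ml), and 1016 and 1156. With median centring they were 75 and 76 at 10 ng/ml, 97 higher at 300 ng/ml, 146 and 46 at 1000 ng/ml, and 202 lower in Pax5sz2. An offset of 10 gave 401 lower at 10 ng/ml, and the turned sign 127 and 387 at 1000 ng/ml. With 1 array left out the counts were 188 to 193 and 370 to 502 at 10 ng/ml, 442 to 466 and 653 to 1802 at 300 ng/ml, 499 to 590 and 177 to 188 at 1000 ng/ml, and 556 to 619 and 654 to 825 in Pax5sz2. The median of all features in Pax5sz2 was 0.15 with median centring or processed signals, against 0.03. The causes were not tested, other than that 1 array cannot fail on the second.

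Pathway counts with median centring fell to 0 for the inflammasome list as higher at 10, 300 and 1000 ng/ml, to 1 higher and 1 lower in Pax5sz2, to 0 for DNA sensing at 1000 ng/ml, and to 1, 0 and 0 for interferon signalling at 10, 300 and 1000 ng/ml, while the other PYHIN genes had 1 lower at 1000 ng/ml. Processed signals gave 2 PYHIN genes higher at 300 ng/ml and 1 lower at 1000 ng/ml, 2 inflammasome genes lower at 300 ng/ml and 2 higher at 1000 ng/ml, and 4 and 3 interferon signalling genes higher at 10 ng/ml and in Pax5sz2.

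The mean doxycycline effect passed 2888 features and 2 members without the 1000 ng/ml pair, and 1 feature and 0 members with arrays as samples and the comparison as a block. The other settings gave 0, leaving out 1 array included, and robust eBayes had 0 features at an unadjusted p under 0.05. With the turned pair the effect of Ifi202b, at 1.35 the farthest from 0 of the 9 members, became -0.15. Signs also turned for effects under 0.2 in size: Pycard -0.059 with the turned pair; Nlrp3 0.048 (median centring), 0.014 (processed signals) and -0.044 to 0.018 (without 1 array at 300 ng/ml); Ifi203 0.11 (processed signals), 0.090 (series matrix) and -0.50 to 0.22 (without 1 array at 300 ng/ml); and Ifi205 -0.0037 (without 1 array at 1000 ng/ml). No paired analysis was possible because the labels carry no replicate numbers and each comparison has 1 RNA sample. Signal over background limits Aim2, Ifi205, and at 1000 ng/ml Nlrp3, Ifi206 and Casp1.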
